A study of Mus musculus with 15 samples.

Results

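The heat shock proteins and molecular chaperones were taken by name. Of 26061 genes in the deposited table, 81 had a symbol of the Hsp90aa, Hsp90ab, Hsp90b, Hspa, Hspb, Hspd, Hspe, Hsph, Dnaja, Dnajb, Dnajc or Cct series. They were 3 HSP90 genes, 11 HSP70 genes, 3 HSP110 genes, 2 genes for the mitochondrial chaperonin (HSP60 and HSP10), 9 genes of the cytosolic chaperonin series (TRiC or CCT), 8 small heat shock proteins, and 4 DNAJA, 13 DNAJB and 28 DNAJC genes, which encode J proteins. Of these, 77 were above the lowest value of the table in at least 5 of 15 libraries and were tested, whereas Hspb7, Hspb9, Dnajb7 and Dnajb8 were not. The samples were E14 cells, a feeder-free mouse embryonic stem cell (ESC) line of 129/Ola background. They carried, from a lentiviral pLKO.1 vector, a short hairpin RNA (shRNA) that was non-targeting (shScr), directed at Tet1 (shTet1) or directed at Tet2 (shTet2), in 5 libraries each. All cells were under puromycin for 3 days before total RNA was depleted of rRNA and sequenced. TET1 and TET2 oxidise methylated cytosine in DNA. Each gene was targeted by 1 hairpin only, so that off-target effects cannot be told apart from loss of the TET protein, and no source used here gives the libraries as separate cultures, so that p-values measure the spread between these libraries only.

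Chaperones hold unfolded proteins and help them to fold, assemble, cross membranes or be degraded. HSP70 proteins bind short stretches of unfolded chain and are driven by ATP, J proteins hand them substrates and start ATP hydrolysis, HSP110 proteins exchange the nucleotide, and HSP90 acts later on nearly folded clients such as kinases and receptors. Chaperonins are closed rings (TRiC in the cytosol, HSP60 with its lid HSP10 in mitochondria), and small heat shock proteins keep aggregating proteins soluble without ATP. Stress-inducible members are switched on by heat shock factor HSF1, endoplasmic reticulum (ER) members by the unfolded protein response, and most others are made at all times. The inducible HSP70 genes Hspa1a and Hspa1b are also known as early transcripts of the embryonic genome.

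Gene reads per library, recovered from the deposited values, ranged from 15258291 to 35432425, and chaperone genes took 2.61 to 3.8% of them. Tet1 was lower in shTet1 (−1.84, SE 0.19) and Tet2 in shTet2 (−1.90, SE 0.13) against shScr. Of the ES cell markers, 12 of 12 were above the table minimum in every library, with summed normalised reads of 97879 to 148010. The 11 fibroblast markers together had 394 to 574. Of these, Pdgfra, also a primitive endoderm marker, averaged 316, 244 and 151 in shScr, shTet1 and shTet2. Thy1 averaged 80.9, 103 and 155 and Pdgfrb 54.0, 83.2 and 68.1, and only Lum was at 0 in all libraries. A group of 4 libraries (shScr 4, shTet1 3 and 4, shTet2 4) stood apart by their share of reads from receptor genes of smell (Olfr and Vmn), which ESCs do not use, with 54.5 to 64.7 RPM (relative to gene reads) against 11.1 to 26.5 in the others. Results are therefore also given without these 4.

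The clearest result concerned the pair Hspa1a and Hspa1b, which encode the same stress-inducible HSP70 and lie next to each other on chromosome 17. Hspa1a lies at 35106144 to 35109069 and Hspa1b at 35093381 to 35096183 (mm9, minus strand), each as 1 exonic block. Their upstream sequences are shown because they carry a pair of units of the heat shock element and show how alike the genes are: 247 of the 250 bases before the RefSeq start were the same. They are RefSeq promoter sequences (tabulated on GRCm38.p6) that match mm9 at chr17:35109102-35109351 for Hspa1a and chr17:35096184-35096433 for Hspa1b, written 5′ to 3′ on the minus strand. Capitals mark a pair of inverted heat shock units.
Hspa1a: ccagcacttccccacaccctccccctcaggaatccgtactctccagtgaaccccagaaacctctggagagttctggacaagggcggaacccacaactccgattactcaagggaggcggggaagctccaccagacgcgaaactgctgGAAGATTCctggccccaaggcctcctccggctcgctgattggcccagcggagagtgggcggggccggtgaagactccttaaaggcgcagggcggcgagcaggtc
Hspa1b: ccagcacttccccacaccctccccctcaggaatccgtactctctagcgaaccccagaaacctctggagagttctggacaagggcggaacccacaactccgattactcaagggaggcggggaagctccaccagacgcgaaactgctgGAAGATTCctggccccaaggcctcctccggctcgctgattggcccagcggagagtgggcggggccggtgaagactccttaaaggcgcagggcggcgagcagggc
The motif searched was GAANNTTC or TTCNNGAA, each of which reads the same on both strands, with overlapping matches counted. It was in the window from 250 bases before to 50 bases after the start of 20 of 66 chaperone genes with a RefSeq promoter (30.3%), compared with 17.0% of 27025 genes. Among 12 stress-inducible chaperone genes with a promoter, 9 held it (Hspa1a, Hspa1b, Hsph1, Hspb1, Hspb8, Hspd1, Hspe1, Dnaja1 and Dnajb4). The longer form with 3 units, in exact spelling, was in 4 of 66 (6.06%, against 0.662% of all genes): Dnajb6, Hspd1, Hspe1 and Hsph1. Neither Hspa1a nor Hspa1b held this longer form in the window. The ER stress element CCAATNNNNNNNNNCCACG, searched on both strands, was in 3 of 66, all of them ER chaperones (Hspa5, Hsp90b1 and Dnajc3), and in 0.137% of all genes. The exonic sequences of Hspa1a and Hspa1b also overlapped, since 59.4% and 61.2% of their stretches of 50 bases occurred in the other gene, so that reads could be assigned to either copy.

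Levels are compared between genes as normalised reads per kilobase (kb) of exonic length in shScr, as mean ± SD of 5 libraries. The cytosolic HSP90 genes were at the top, with 32091 ± 7066 for Hsp90aa1 (the stress-responsive form) and 27435 ± 7324 for Hsp90ab1 (the constitutive form), which overlap within their spread. Hspa8, the constitutive HSP70, followed with 20919 ± 7379. Hspa9, the mitochondrial HSP70, had 11744 ± 1563, Hspa4, an HSP110, had 8266 ± 1265, Hspd1 (HSP60) had 7901 ± 2367, and Hspa5 (the ER HSP70, BiP) had 7052 ± 2631. The 7 TRiC subunits of the rule ranged from 3085 ± 111 (Cct4) to 20540 ± 4085 (Cct6a), although they enter the ring in equal number. Much of this range rests on the exonic lengths used, 4201 bases for Cct4 and 1599 for Cct6a. Before division by length their means were 12959 and 32843 normalised reads. The annotation used for counting may have had other lengths. Hspa1b and Hspa1a were far below, at 79.5 ± 32.2 and 54.6 ± 23.5 reads per kb. The highest J protein gene was Dnajc8, a splicing-associated factor, at 2869 ± 483, and the highest small heat shock protein was Hspb1 at 2164 ± 365. By reads, Hsp90aa1, Hspa8 and Hsp90ab1 together made up 40.1% of all chaperone reads. The testis forms Cct6b and Cct8l1 (6.78 and 0.584 reads per kb), the germ cell form Hspa1l (6.95) and the muscle forms Hspb3 (2.87) and Hspb2 (7.64) were at the low end, and Dnajb8 was listed at 0 in all libraries. Copies elsewhere in the genome make some of these levels uncertain, since 68.4% of the 50-base stretches of Hspa8, 62.6% of Hsp90aa1, 57.4% of Hspb1, 51.9% of Hspd1 and 46.5% of Hspe1 were also found elsewhere in mm9.

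**Figure D1:**
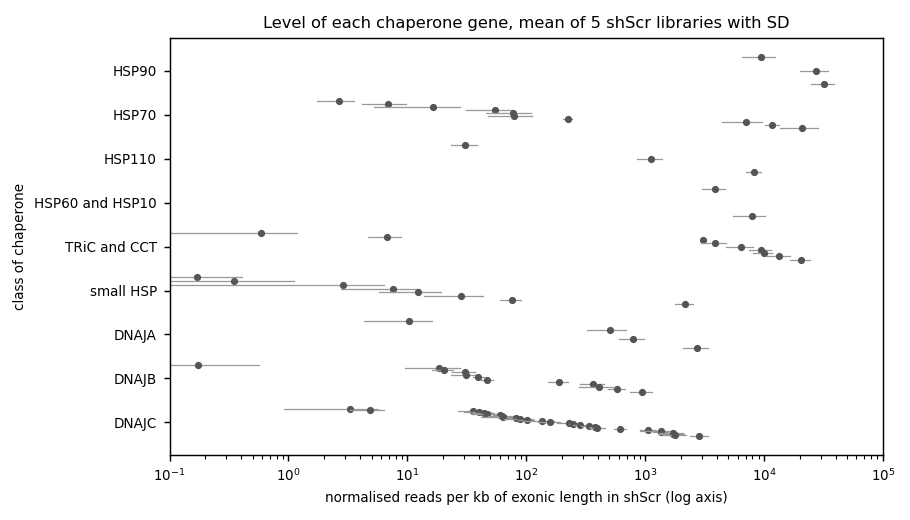
Normalised reads per kb of exonic length in shScr on a log axis, by class of chaperone, with points as means of 5 libraries and lines as SD (lines that would reach below 0.1 are cut there, and Hspa14 and Dnajb8 are not drawn). HSP90, the 7 TRiC ring subunits and the constitutive HSP70 genes (Hspa8, Hspa9 and Hspa5) reach 3085 reads per kb and above, whereas Hspa1a and Hspa1b lie at 54.6 and 79.5.

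Hspa1a and Hspa1b were lowest in shTet1 and highest in shTet2. On the variance-stabilised log2 scale of the deposited table, Hspa1a was 7.18, 7.49, 7.91, 6.93 and 8.18 in shScr replicates 1 to 5. It was 6.51, 6.44, 6.96, 6.64 and 7.61 in shTet1. In shTet2 it was 8.09, 8.31, 8.09, 8.23 and 8.11. The lowest shTet2 library exceeded the highest shTet1 library, the shScr libraries overlapped with both groups, and the shTet2 libraries were the most alike (SD 0.10, against 0.51 in shScr and 0.48 in shTet1). As mean ± SD of 5 libraries, shScr had 160 ± 68.8 normalised reads, shTet1 84.7 ± 43.9 and shTet2 251 ± 20. Directly compared, Hspa1a was higher in shTet2 than in shTet1 by 1.33, in 5 of 5 same-numbered pairs (SE 0.24, 95% confidence interval 0.83 to 1.84, Benjamini-Hochberg adjusted p = 0.00274 in limma). The two-sided exact permutation p was 0.00794, the smallest that 5 against 5 libraries allow. In bulk RNA, more expressing cells and more RNA per cell cannot be told apart.

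Hspa1b behaved alike, and its reads cannot be kept apart from those of Hspa1a. Its values were 7.73, 7.96, 8.30, 7.15 and 8.56 for shScr. For shTet1 they were 6.77, 6.93, 7.76, 6.79 and 7.97. For shTet2 they were 8.44, 8.58, 8.53, 8.13 and 8.57. Again the shTet1 and shTet2 libraries did not overlap. The difference of shTet2 from shTet1 was 1.21 (SE 0.26, limma adjusted p = 0.0119, 95% confidence interval 0.65 to 1.76). The exact permutation p was again 0.00794. With the reads of both genes summed to 1 feature, an alternative added after the data were seen, the difference was 1.38 (95% confidence interval 0.83 to 1.94, limma adjusted p = 0.00464). Without the 4 libraries of high receptor share the differences were 1.30 (limma adjusted p = 0.0379) for Hspa1a and 1.31 (limma adjusted p = 0.0258) for Hspa1b.

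Against shScr, the differences of both genes were of opposite sign in the knockdowns and smaller. In shTet1, Hspa1a was −0.71 from shScr (SE 0.24, limma unadjusted p = 0.00813, Benjamini-Hochberg adjusted p = 0.223) and Hspa1b −0.70 (SE 0.26, limma adjusted p = 0.285), both lower in 5 of 5 pairs. With the replicate number as a block, these differences passed, with limma adjusted p of 0.0406 for Hspa1a and 0.0252 for Hspa1b. In shTet2, Hspa1a was 0.62 from shScr (SE 0.24, limma adjusted p = 0.293) and Hspa1b 0.51 (SE 0.26, limma adjusted p = 0.482), higher in 4 and 5 of 5 pairs. Taken by replicate set, Hspa1a differed between shTet2 and shTet1 by 1.73 in replicates 1 and 2 and by 1.07 in replicates 3 to 5. The predicted gene Gm20481 overlaps 18.9% of the exonic bases of Hspa1a on the opposite strand, and whether the counting used strand is not given in the sources used here.

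Other measures of the same libraries are given here, and their part in the result was not tested. A list of 17 genes of the 2-cell-like state, a rare ESC state resembling the early embryo, was chosen after the data were seen, and 12 of its genes matched the table. Their summed normalised reads were 20995 to 43674 in shScr, 4759 to 29039 in shTet1 and 50228 to 78382 in shTet2, in the same order as Hspa1a and Hspa1b and with no overlap between shTet2 and the other groups. Zscan4c, a marker of that state, averaged 4702, 2194 and 9311 normalised reads. Immediate-early genes, which respond to handling, had 3399 to 4637, 3751 to 4632 and 3528 to 4341 summed reads, so that the groups overlapped. Of 15 immediate-early genes tested, 0 had an adjusted p under 0.05 between shTet2 and shTet1 in limma, the only tool run across all genes, and 3 had an unadjusted p under 0.05 (Jund and Ier2 lower, Egr1 higher). With the replicate block, 3 of 15 passed (Jund and Ier2 lower, Fos higher), against 11.2% of all genes. Of the heat shock factors, Hsf1 differed between shTet2 and shTet1 by −0.09 (95% confidence interval −0.37 to 0.20) and Hsf2 by −0.02 (−0.25 to 0.20). These are RNA levels, and the activity of the factors was not measured.

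**Figure D2:**
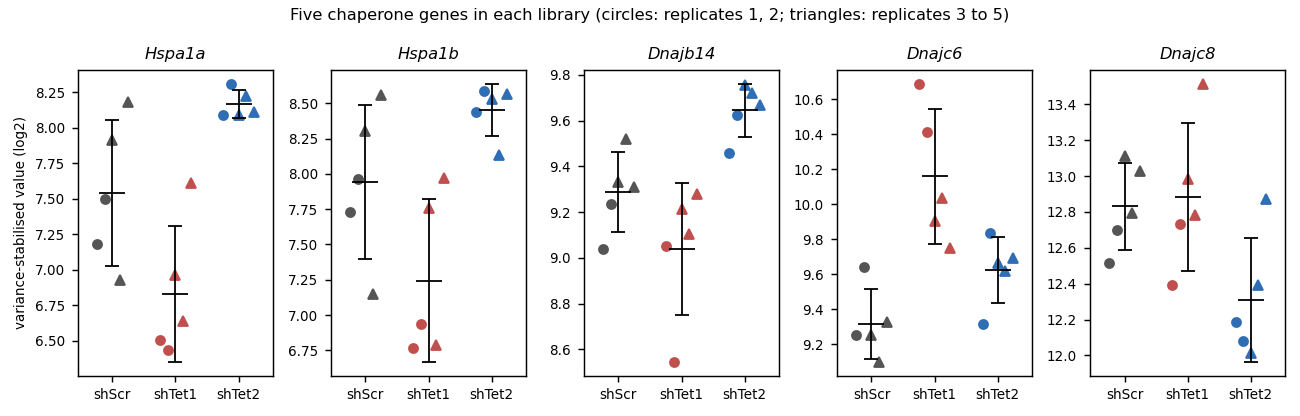
Variance-stabilised log2 value of 5 genes in every library, with circles for replicates 1 and 2, triangles for replicates 3 to 5, and bars for mean ± SD of 5 libraries (the vertical axes do not start at 0 and differ between genes). For Hspa1a, Hspa1b and Dnajb14 the lowest shTet2 point exceeds the highest shTet1 point, for Dnajc6 all shTet1 points lie above all shScr points, and for Dnajc8 the groups overlap.

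Of 11 HSP70 genes, 9 were higher in shTet2 than in shTet1, compared with 10268 of 19490 genes, and only Hspa1a and Hspa1b passed. The median difference was 0.34, compared with 0.01 over all genes tested. The count takes Hspa1a and Hspa1b as separate genes and includes genes of few reads. Summed reads of the class overlapped, with 120240 to 188260 in shTet1 and 112770 to 171490 in shTet2. The sum rests mostly on Hspa8, Hspa9 and Hspa5, with means of 86940, 46177 and 24775 normalised reads in shScr. It therefore says little about the genes of fewer reads. Hspa1l, the germ cell HSP70 next to Hspa1a on the plus strand, was low, with a mean of 17.2 normalised reads in shScr, 13 in shTet1 and 27.4 in shTet2. It was higher in shTet2 than in shTet1 by 0.50 (SE 0.16, limma adjusted p = 0.102, and 0.0200 with the replicate block), but 72.0% of its exonic bases overlap the predicted gene Gm10501. Hspa2, a testis HSP70 also present in ESCs, was 7.66, 7.74, 7.57, 7.11 and 8.01 in shTet1 and 8.16, 8.13, 8.05, 7.83 and 8.43 in shTet2, a difference of 0.50 (SE 0.23, limma adjusted p = 0.296). Hspa12b, a divergent HSP70 of vessels, averaged 4.33 reads in shTet1 and 12.5 in shTet2, close to the detection limit, with a difference of 0.54 (limma adjusted p = 0.0722, and 0.0321 with the block). Of the abundant housekeeping HSP70 genes, Hspa8 differed between shTet2 and shTet1 by 0.10 (95% confidence interval −0.41 to 0.61) and Hspa9 by 0.03 (−0.26 to 0.31). Hspa5 differed by −0.33, with a wide interval (−1.05 to 0.39).

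Across all chaperone genes, few differences passed in any comparison. Between shTet1 and shScr, 0 of 77 had an adjusted p under 0.05 in limma, compared with 0.0718% of all 19490 genes. At an unadjusted p under 0.05, 5 were higher (6.49%, against 6.55% of all genes) and 6 were lower (7.79%, against 5.23%). In the exact permutation test 9 of 77 members had a p under 0.05. That test was run on members only, so its counts have no share of all genes beside them. They cannot show whether members exceeded other genes. The 5 against 5 libraries did not overlap for 4 members, Dnajb3, Dnajc6, Dnajc13 and Dnajc28 (5.19%, against 2.62%). With the replicate block, 5 members passed (6.49%, against 4.80%), with Dnajc6, Hspb8 and Dnajc28 higher and Hspa1a and Hspa1b lower. The median difference was −0.05 over the 77 members and 0.01 over all genes.

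Between shTet2 and shScr, 0 of 77 also had an adjusted p under 0.05 in limma, against 0.390% of all genes. At an unadjusted p under 0.05, 4 were higher (5.19%, against 8.00%), Hspa4l, Dnajb14, Hspb11 and Hspa1a, and 6 were lower (7.79%, against 3.58%), Dnajc24, Dnajc5, Dnajc25, Dnajc8, Dnajc11 and Dnajb6. The exact permutation test gave 10 of 77 members with a p under 0.05, again without a share of all genes. Libraries did not overlap for Dnajc5 and Cct4 (2.6%, against 2.70%). The median was −0.08 over members and 0.04 over all genes, and 52 of 77 members were lower, compared with 8413 of 19490 genes.

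Between shTet2 and shTet1, 3 of 77 members passed (3.90%, against 4.24% of all genes), Hspa1a, Hspa1b and Dnajb14, all higher in shTet2. At an unadjusted p under 0.05, 7 were higher (9.09%, against 9.32%) and 5 lower (6.49%, against 6.37%), and libraries did not overlap for 6 (7.79%, against 6.04%). The exact permutation test gave 14 of 77 members with a p under 0.05, without a share of all genes. With the block, 9 passed (11.7%, against 11.2%): Hspa1a, Hspa1b, Hspa1l, Hspa12b, Dnajb14 and Dnajb9 were higher, and Dnajb4, Dnajc6 and Dnajc8 lower. The shares of members that passed were thus near those of all genes. These comparisons share libraries and are not independent of each other.

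**Figure D3:**
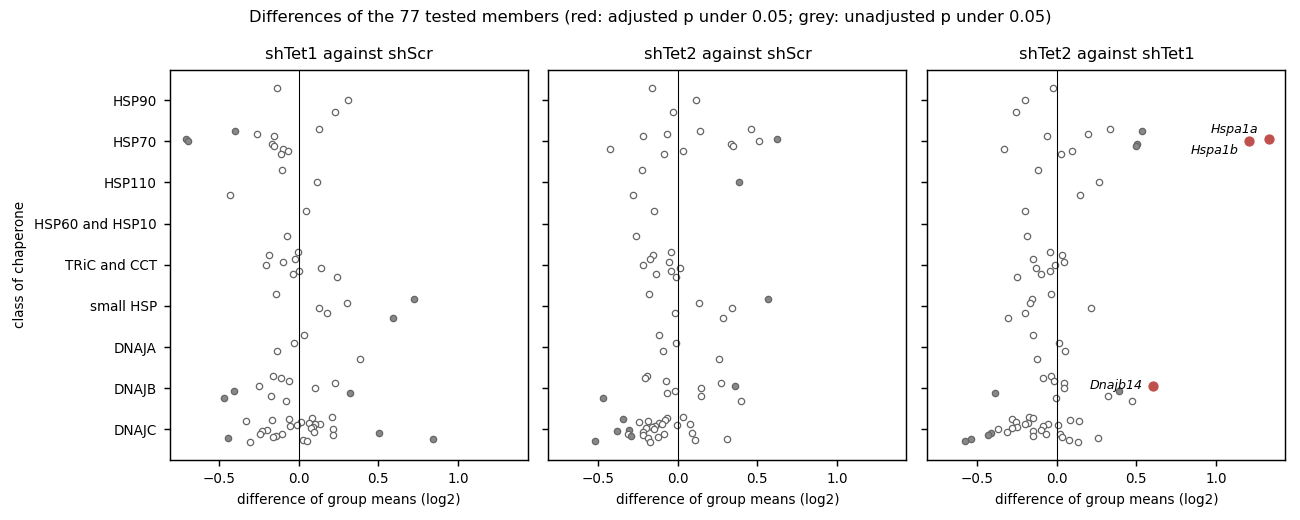
Difference of group means (log2) of each of the 77 tested chaperone genes, by class, in the 3 comparisons, with red for an adjusted p under 0.05 in limma and grey for an unadjusted p under 0.05. Red points are seen only between shTet2 and shTet1, for Hspa1a (1.33), Hspa1b (1.21) and Dnajb14 (0.61).

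Dnajb14, which encodes a J protein anchored in the ER membrane, passed between shTet2 and shTet1 with and without the block. It was 9.04, 9.23, 9.33, 9.52 and 9.31 in the shScr replicates. The shTet1 replicates had 9.05, 8.55, 9.21, 9.10 and 9.28. Those of shTet2 had 9.46, 9.62, 9.76, 9.72 and 9.67. No shTet2 library was as low as any of shTet1, and shTet1 replicate 2 was the lowest. The difference between them was 0.61 (SE 0.15, 95% confidence interval 0.30 to 0.91, limma adjusted p = 0.0208, exact permutation p = 0.00794). It missed the threshold without shTet1 replicate 2 (0.48, limma adjusted p = 0.0608), without shTet2 replicate 4 (0.59, limma adjusted p = 0.0517), without the 4 libraries of high receptor share (0.67, limma adjusted p = 0.0872) and with median centring (0.55, limma adjusted p = 0.0674).

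Dnajc6 encodes auxilin, which uncoats clathrin-coated vesicles with HSP70. It was 9.25, 9.64, 9.25, 9.10 and 9.33 for shScr. It was 10.69, 10.41, 9.90, 10.04 and 9.75 for shTet1. It was 9.32, 9.83, 9.66, 9.62 and 9.69 for shTet2. All shTet1 libraries were above all shScr libraries, and replicates 1 and 2 of shTet1 were the highest. The difference of shTet1 from shScr was 0.84 (SE 0.17, 95% confidence interval 0.49 to 1.20), with a limma adjusted p of 0.0627 and an exact permutation p of 0.00794. Over its 22 alternatives the limma adjusted p ranged from 0.00668 with the replicate block to 0.229 without the 4 libraries of high receptor share, and it passed in 6, among them the fit without shTet1 replicate 5 (0.95, limma adjusted p = 0.0198).

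Dnajc8, a J protein of the spliceosome, had the largest difference below shScr among the members in shTet2. The shScr libraries had 12.52, 12.70, 13.11, 12.79 and 13.03. The shTet1 libraries had 12.39, 12.73, 12.98, 12.79 and 13.51. The shTet2 libraries had 12.19, 12.08, 12.01, 12.39 and 12.87. The groups overlapped through shTet2 replicate 5, but shTet2 was lower in 5 of 5 pairs against either group. Its difference was −0.52 from shScr (SE 0.20, limma adjusted p = 0.283) and −0.57 from shTet1 (SE 0.20, limma adjusted p = 0.124, and 0.00654 with the block). Without shTet2 replicate 5 the difference from shTet1 was −0.71 (limma adjusted p = 0.0400).

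Further J protein genes differed by less. Dnajc28, a mitochondrial J protein, was higher in shTet1 than in shScr in every library, by 0.50 (SE 0.17, limma adjusted p = 0.238, and 0.0486 with the block). Dnajb4, a cytosolic partner of HSP70, was lower in shTet2 than in shTet1 (−0.39, SE 0.14, limma adjusted p = 0.157, and 0.0398 with the block). Dnajb6, which suppresses aggregation of polyglutamine proteins, was −0.47 from shScr in each knockdown (SE 0.19, limma adjusted p of 0.324 in shTet1 and 0.327 in shTet2), although 66.2% of its 50-base stretches occur elsewhere in mm9. Dnajc5, the cysteine string protein of vesicles, ranged from 10.60 to 10.76 in shTet2, below all shScr libraries (10.80 to 11.16), with a difference of −0.29 (SE 0.11, limma adjusted p = 0.286). Dnajc11 (mitochondrial, −0.34), Dnajc25 (ER, −0.38) and Dnajc24 (diphthamide synthesis, −0.30) were also lower in shTet2 than in shScr at an unadjusted p under 0.05, and Dnajc4 (mitochondrial) differed between shTet2 and shTet1 by −0.43, without reaching the adjusted threshold. Of the 28 DNAJC genes, 23 were lower in shTet2 than in shScr, compared with 8413 of 19490 genes, with a median of −0.15. In shTet1, 15 were higher, compared with 10208 of 19490 genes, with a median of 0.02.

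HSP90, HSP110, the mitochondrial chaperonin and the small heat shock proteins held no gene past the threshold in any comparison in limma, with or without the block, other than Hspb8 in shTet1 with the block. Hsp90aa1 differed from shScr by −0.14 (95% confidence interval −0.61 to 0.33) in shTet1 and −0.16 (−0.63 to 0.31) in shTet2, and Hsp90ab1 by 0.31 (−0.18 to 0.80) and 0.11 (−0.37 to 0.60). Hsp90b1 (GRP94 of the ER) differed by 0.22 (−0.24 to 0.69) and −0.03 (−0.49 to 0.43). Hsph1, the inducible HSP110, spread widely in shTet2, with 11.88, 12.26, 13.99, 11.87 and 13.19, and its difference from shScr was −0.28 (−0.98 to 0.42). Hspa4l, another HSP110, was 0.38 from shScr in shTet2 (SE 0.16, limma adjusted p = 0.367). Hspd1 and Hspe1, which share a promoter region, differed by 0.05 (−0.48 to 0.57) and −0.08 (−0.58 to 0.43) in shTet1. Hspb8, which works with BAG3 in autophagy, was 7.39, 7.72, 7.41, 7.78 and 7.21 in shScr and 8.32, 8.47, 7.74, 8.40 and 7.53 in shTet1, a difference of 0.59 (SE 0.19, limma adjusted p = 0.201, and 0.0257 with the block). Hspb11, a cilium transport subunit in spite of its name, was 0.72 from shScr in shTet1 (limma adjusted p = 0.223) and 0.57 in shTet2 (limma adjusted p = 0.372), with shScr replicate 2 far below the other shScr libraries (5.59, against 6.43 to 7.11). Hspb1, the main small heat shock protein of these cells, differed by −0.14 (−0.53 to 0.24) and −0.18 (−0.56 to 0.20).

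The TRiC ring, which folds actin and tubulin, differed little between groups. Its 7 subunits in the series lay below shScr in 7 of 7 cases in each knockdown, compared with 9282 (shTet1) and 8413 (shTet2) of 19490 genes. The medians were −0.03 in shTet1 and −0.13 in shTet2, with 0 passing in limma and 0 with an unadjusted p under 0.05. Both counts rest on the same shScr libraries and are not independent. The eighth subunit, Tcp1, named outside the series, differed by −0.05 (−0.35 to 0.25) and −0.20 (−0.50 to 0.10). Cct4 was the steadiest chaperone gene, with a within-group SD of 0.07. It was 13.63, 13.61, 13.71, 13.64 and 13.72 in shScr and 13.57, 13.49, 13.44, 13.58 and 13.39 in shTet2, so that the groups did not overlap. The difference was −0.17 (95% confidence interval −0.38 to 0.04, limma adjusted p = 0.558). The exact permutation p was 0.00794, the smallest that 5 against 5 libraries allow. The interval uses a spread that limma estimates partly from other genes of like level, not only the SD of Cct4. For the 7 subunits the 95% confidence intervals against shScr all held 0, for example −0.36 to 0.29 for Cct8 in shTet1 and −0.57 to 0.14 for Cct6a in shTet2.

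By compartment and regulation, few members passed in any list. The counts below stand beside those of all 19490 genes. An unadjusted p under 0.05 in limma was held by 2295 genes in shTet1 and 2257 in shTet2 against shScr. Between shTet2 and shTet1 it was held by 3057. The adjusted threshold was passed by 0.0718%, 0.390% and 4.24% of genes in these comparisons. Of 15 stress-inducible members, 0 passed against shScr in limma without the block, with medians of −0.08 in shTet1 and −0.07 in shTet2 and 4 and 2 members at an unadjusted p under 0.05. The block let 3 pass in shTet1 (Hspb8 higher, Hspa1a and Hspa1b lower). Between shTet2 and shTet1, where the median was −0.03, 2 passed (Hspa1a and Hspa1b), and with the block 3, since Dnajb4 was also lower. Dnaja1 and Dnajb1, the main cytosolic J proteins of the heat shock response, differed between shTet2 and shTet1 by −0.15 (−0.74 to 0.45) and −0.04 (−0.43 to 0.35), and Hsph1 by 0.15 (−0.55 to 0.85). Of 14 ER members, 1 (Dnajb14) passed between shTet2 and shTet1 (with the block also Dnajb9) and 0 against shScr in limma, where 0 in shTet1 and 2 in shTet2 had an unadjusted p under 0.05. In the same list, the stress-responsive Dnajc3 (p58IPK) differed by −0.11 (−0.36 to 0.15) in shTet1 and −0.09 (−0.34 to 0.17) in shTet2. Of 10 mitochondrial, 7 nuclear, ribosomal and splicing, and 6 vesicle members, 0 passed in the 3 comparisons in limma without the block. With the block, Dnajc28 (mitochondrial) and Dnajc6 (vesicle) passed in shTet1 against shScr, and Dnajc8 (splicing) and Dnajc6 between shTet2 and shTet1. Without it, 1, 0 and 2 members of the lists had an unadjusted p under 0.05 in shTet1 against shScr, and 2, 1 and 1 between shTet2 and shTet1. For shTet2 against shScr, where the median of all genes was 0.04, their medians were −0.15, −0.20 and −0.19, and 9 of 10, 7 of 7 and 5 of 6 were lower, compared with 8413 of 19490 genes. At an unadjusted p under 0.05, 1, 2 and 1 of them were lower, against 3.58% of all genes. Of 13 germ cell and muscle members, 9 were tested and 0 passed in limma without the block (1, 0 and 3 at an unadjusted p under 0.05 in the 3 comparisons), and Hspa1l passed with it between shTet2 and shTet1.

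Genes that work with the chaperones but lie outside the series gave few calls as well. Between shTet2 and shTet1, 3 of 108 such genes tested passed in limma, 2 higher and 1 lower, against 4.24% of all genes, with a median of −0.02. With the block, 10 of 108 passed (9.26%, against 11.2% of all genes). Serpinh1, a collagen chaperone of the HSF1 response, was higher by 0.53 (SE 0.13, limma adjusted p = 0.0211). Unc45b, a myosin co-chaperone, was higher by 0.74 (SE 0.20, limma adjusted p = 0.0445), and Htra2, a mitochondrial protease, was lower (−0.62, SE 0.17, limma adjusted p = 0.0442). Against shScr, 0 of 108 passed in limma in either knockdown without the block. At an unadjusted p under 0.05, 1 was higher and 3 were lower in shTet1 (all genes 6.55% and 5.23%), and 4 were higher and 3 lower in shTet2 (all genes 8.00% and 3.58%). With the block, Unc45b was lower in shTet1 (−0.61, limma adjusted p = 0.0306). By list and without the block, the calls between shTet2 and shTet1 were 0 of 6 heat shock factor genes, 1 of 31 HSP70 and HSP90 co-chaperones, 0 of 18 chaperonin and prefoldin partners, 0 of 27 genes of ER folding and the unfolded protein response, 1 of 14 genes of mitochondrial folding and proteolysis, and 1 of 12 other HSF1-response genes. Stip1, which links HSP70 to HSP90, differed by 0.17 (−0.27 to 0.60) and Hyou1, the ER HSP110, by −0.02 (−0.31 to 0.27).

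Marker lists of the sample and of other cell types are also given by group, and their part in the chaperone results was not tested. Between shTet2 and shTet1, 11 of 12 ES cell markers were lower, compared with 9222 of 19490 genes. Their median was −0.34, and 1 passed in limma, against 4.24% of all genes. Their summed reads were 109840 to 128980 in shScr, 120100 to 148010 in shTet1 and 97879 to 118640 in shTet2. Of 9 primitive endoderm markers, 9 were lower in shTet2 than in shScr, compared with 8413 of 19490 genes. Their median was −0.65, and 0 passed in limma, against 0.390% of all genes. At an unadjusted p under 0.05, 6 were lower, against 3.58% of all genes. Their summed reads were 3710 to 6625 in shScr, 3622 to 4685 in shTet1 and 2628 to 4428 in shTet2. The 7 trophoblast markers in the table had 335 to 1224, 517 to 693 and 368 to 2166 summed reads. Between shTet2 and shTet1, 6 of 7 were higher, compared with 10268 of 19490 genes, while the 1 that passed in limma, Eomes, was lower (−0.94). The 11 fibroblast markers, of which Pdgfra is also in the primitive endoderm list, had 443 to 574, 457 to 490 and 394 to 519.

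The replicates of each group fell into sets, 1 and 2 against 3 to 5, a split known from earlier results of these data and not from the labels. The split is therefore described without a test. The labels name different methods of RNA extraction but not which library had which, so whether the method runs with the sets is not known. With group means subtracted, all 9 libraries of replicates 3 to 5 lay above all 6 of replicates 1 and 2 for 6 of 77 chaperone genes (7.79%, against 2.50% of all genes), Dnajc7, Dnajb9, Hsp90ab1, Dnajc21, Dnajc1 and Dnajb14. They lay below them for 1, Dnajc27 (1.30%, against 2.31%). Dnajc7, a co-chaperone that binds both HSP70 and HSP90, had the largest difference of replicates 3 to 5 from replicates 1 and 2, 0.71 on average, with 0.82 in shScr, 0.72 in shTet1 and 0.59 in shTet2. Dnajb9, an ER J protein induced by the unfolded protein response, had 0.70. Hsp90ab1 had 0.63, and its values were 16.11 and 15.69 in shScr replicates 1 and 2, 16.57 and 16.20 in those of shTet1, and 15.89 and 15.82 in those of shTet2, against 16.32 to 17.03 in replicates 3 to 5 of the 3 groups. Dnajc21, a ribosome assembly factor, had 0.59, Dnajc1 of the ER 0.53 and Hspe1 0.51. Differences below 0 were led by Dnajc27 (a small GTPase with a J domain, −0.46), Hspa12a (−0.39), Dnajb5 (−0.36), Hspa8 (−0.34), Dnaja3 (−0.31) and Dnajc6 (−0.26), but for Hspa12a, Hspa8 and Dnajc6 the sign differed between groups. Over members the median was 0.07, against 0.03 over all genes.

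**Figure D4:**
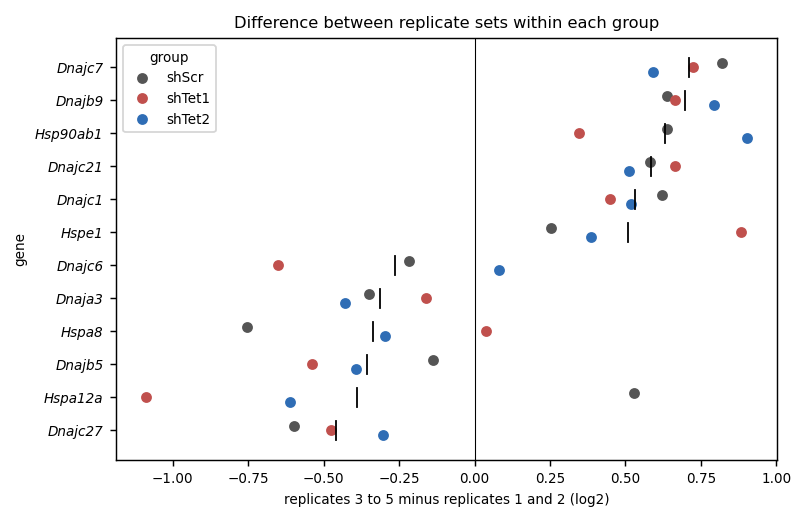
Difference of replicates 3 to 5 from replicates 1 and 2 (log2) within shScr, shTet1 and shTet2 for the 6 chaperone genes with the largest differences above 0 and the 6 with the largest below 0, with black bars as the mean of the 3 groups. Dnajc7, Dnajb9, Hsp90ab1, Dnajc21, Dnajc1 and Hspe1 are above 0 in all 3 groups, and Hspa12a is above 0 in shScr and below 0 in both knockdowns.

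To ask whether the knockdown effects depended on the set, the difference of each effect between replicates 3 to 5 and replicates 1 and 2 was tested. In limma 0 of 77 members passed for either knockdown, as did 0 of 19490 genes. At an unadjusted p under 0.05 there were 3 for shTet1 (3.90%, against 8.21% of all genes), Dnajb6 (0.85), Hspa13 (0.53) and Hspa12a (−1.62), and 2 for shTet2 (2.6%, against 5.35%), Hspb11 (−1.24) and Dnajb13 (−1.07). For Dnajb6, the difference of shTet1 from shScr was −0.98 within replicates 1 and 2 and −0.13 within replicates 3 to 5.

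In shScr and shTet2, replicate 4 stood low for many of the abundant chaperones. Among 66 members at least 2 units above the table minimum on average, shScr replicate 4 was the lowest shScr library for 32 (48.5%, against 28% of 12039 genes at that level), and shTet2 replicate 4 the lowest shTet2 library for 29 (43.9%, against 26.9%). In shTet1, replicate 4 was lowest for 16 (24.2%, against 18.9%) and replicate 1 for 23 (34.8%, against 24.4%). Of 7 TRiC subunits, 6 were lowest in shScr replicate 4, 4 in shTet1 replicate 4 and 6 in shTet2 replicate 4. Hspa5 was 13.26 in shScr replicate 4, against 14.49 to 15.03 in the other shScr libraries, and 12.95 in shTet2 replicate 4, against 14.08 to 14.61. Hspd1 was 13.28 in shScr replicate 4 and 14.39 to 14.59 in the others. By contrast, Dnajb9 in shScr was highest in replicate 4 (10.20, against 9.12 to 9.68). All 3 replicate 4 libraries were among the 4 of high receptor share. The remaining library of these 4, shTet1 replicate 3, was the lowest shTet1 library for only 6 of 66 members (9.09%, against 12.9% of genes). The part of the receptor share in these levels was not tested. At the other end, shTet1 replicate 5 was the highest shTet1 library for 39 of 66 members (59.1%, against 33.3% of genes). Spread between libraries was largest for Hspa5 (within-group SD 0.65), Hspa12a (0.64), Hsph1 (0.63) and Dnaja1 (0.53), with a median of 0.30 over the 66 members and 0.29 over all genes at that level.

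**Figure D5:**
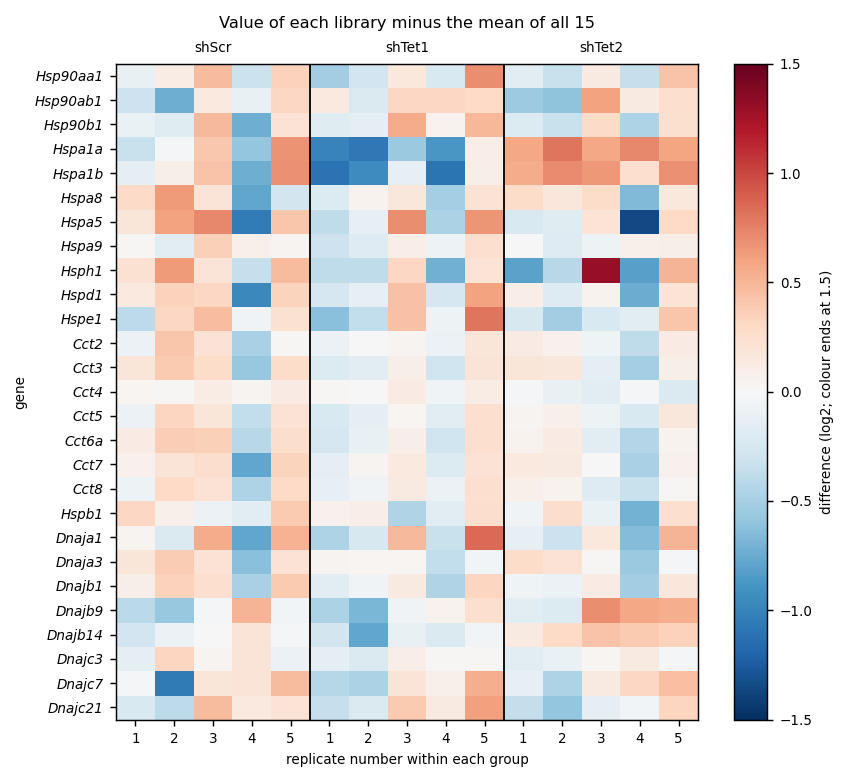
Value of 27 chaperone genes in each library minus the mean of all 15 libraries (log2, red above and blue below, colours end at 1.5), with libraries ordered by replicate within shScr, shTet1 and shTet2. Hspa1a and Hspa1b are red throughout shTet2 and blue in most of shTet1, and replicate 4 is blue for Hspa5, Hspd1 and most TRiC subunits.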

How the data were processed

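Per the labels and the study's methods, reads were trimmed (Trim Galore 0.3.3), aligned to mm9 with TopHat2 2.0.9 and counted per gene by the authors, who normalised the counts with DESeq2. The deposited gene table holds variance-stabilised log2 values made by the authors, with a lowest value of 4.25 where a gene had no read. The transformation was inverted, which gave whole reads (within 0.05) for 100% of values and thus depth and normalised reads. The deposited table of repeats was not used here. Whether the counting used strand is not given in the sources used here.

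Genes above the minimum in at least 5 of 15 libraries (19490) were fitted in limma 3.58.1 (R 4.3.3), in 1 fit over 15 libraries with group as the only term and a variance trend. Tests were two-sided, with Benjamini-Hochberg adjustment over all genes tested and a threshold of 0.05. For single genes, the 5 against 5 libraries were also compared by exact permutation. A fold change on this scale is understated for genes of low level. The fit was also run on simulated counts. These were drawn as independent libraries without replicate sets, so that run cannot vouch for the calls given here.

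The members follow a rule on symbols, and members and lists were chosen with earlier results of these data known. Named genes were members past the threshold against shScr (there were none), the 6 higher and 6 lower members with the largest difference per comparison among those at an unadjusted p under 0.05 and at least 2 units above the minimum on average, the same by replicate set, and 25 core chaperones. Genes outside the series were named by call or as fixed examples, and others (Hspa1l, Hspa12b, Hspa13, Dnajb3, Dnajc13, Dnajb13, marker genes and the genes at the ends of the level scale) after their values were seen. Positions and exonic lengths are from GENCODE vM1 on mm9, where 80 of 81 members matched.

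Same-numbered libraries deviated together for every pair of shTet1 and shScr (correlations 0.374 to 0.657) and of shTet2 and shTet1 (0.330 to 0.731), so that their block values are given. The labels and the study give no pairing by number, and libraries of different number were not compared. A true pairing thus cannot be told apart from the replicate sets or other traits shared by number, and block values hold only if the pairing does. No 2 libraries were copies (chi-square per degree of freedom at least 22.8 over 30 pairs within groups). Alternatives included filters, scalings, weights, the replicate block and leaving out each library.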

Additional observations from a re-analysis of the deposited data

Results flagged for a closer look

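Between the knockdowns, the differences of shTet2 from shTet1 passed the test for Hspa1a (1.33), Hspa1b (1.21) and Dnajb14 (0.61), which means that the effects of the knockdowns against shScr differed for these genes.

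Within groups of 5 libraries, 8 values lay far from the rest among the 141 groups of 47 named genes. Independent groups would give about 1 in 20, or about 7, by chance. The genes share the same libraries, so the groups are not independent and the total cannot be judged by that number. Of the 8 values, all the lowest of their group, 7 were in replicate 4. In shScr replicate 4, Cct3 was 13.43 (next lowest 14.19), Cct7 13.11 (13.95), Dnaja3 10.88 (11.68) and Hspd1 13.28 (14.39). In shTet1 replicate 4, Dnaja3 was 11.12 (11.46). In shTet2 replicate 4, Cct7 was 13.40 (13.89) and Hspa8 15.66 (16.48). Dnajc28 was 7.10 in shScr replicate 2 (next lowest 7.64). These libraries of replicate 4 also had a high share of reads in receptor genes, as did shTet1 replicate 3, in which none of these values fell.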

How the results depend on the processing

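Of 599 values of 27 member differences under the alternatives, 575 kept their direction and their side of the threshold, 20 passed only under the alternative, 4 (all of Dnajb14 between shTet2 and shTet1) missed it and 0 changed sign. Between shTet2 and shTet1, Hspa1a (1.24 to 1.68, limma adjusted p from 0.000215 to 0.0379) and Hspa1b (1.09 to 1.45, limma adjusted p from 0.000160 to 0.0393) passed in all 23 alternatives run. The number of members passing moved from 0 to 5 for shTet1 against shScr with the replicate block, and to 1 (Dnajc6) with the stricter filter, with the replicate set as a term, with array weights, with the receptor share as a term or without shTet1 replicate 5 (0 to 1 over the libraries left out). It moved from 0 to 1 (Dnajc8) for shTet2 against shScr with the replicate block, where same-numbered libraries did not deviate together for every pair (correlations from 0.00789), and from 3 to 9 with the replicate block and to 7 with the replicate set as a term for shTet2 against shTet1 (2 to 4 over the libraries left out). Over all genes, the 14 calls for shTet1 against shScr became 935 with the block, 264 with the set term, 95 with the receptor term, 56 with array weights, 37 with the stricter filter, 22 with quantile normalisation, 3 with only the 2 groups compared, 1 without the 4 libraries of high receptor share and 1 to 171 over the libraries left out. The 76 for shTet2 against shScr became 840, 266 and 283 with the block, the set term and array weights, 48, 45 and 39 (43 higher of 76, but 20, 16 and 5 higher) with the scale of reads, quantile normalisation and median centring, 13 without the 4 libraries and 10 to 99 over the libraries left out. The 827 for shTet2 against shTet1 became 2178, 1263 and 1246 with the block, the set term and array weights, 345 without the 4 libraries and 512 to 902 over the libraries left out. The share higher was 561 of 827, and 437 of 764 with median centring. No member passed in the tests of set dependence under the alternative run, and the count of members with sets apart was 5 with median centring, against 7. Median centring moved the median of all genes for shTet2 against shScr from 0.04 to −0.07. The scale of reads, the receptor share and the 4 libraries left out were chosen after seeing the data. Hspa1a and Hspa1b rest on about 85 to 315 normalised reads per library on average, so that counting error adds to their spread.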
